A study of Mus musculus with 6 samples.

Results

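The genes described here encode the machinery of meiotic recombination and chromosome synapsis, 39 mouse genes chosen by name for their known role in meiosis and not for their values. Of these, 38 could be matched to one of the 22380 gene identifiers measured in each library, and *Spata22*, which helps strand exchange, could not be matched. Levels were measured by Smart-Seq2 RNA sequencing in 6 libraries of mouse embryonic stem cells (mESC), 3 from control cells (*Ctrl*) and 3 from cells in which the genes of the TET family of 5-methylcytosine dioxygenases had all been deleted (*Tet iTKO*). Cells of both groups carried *CreERT2* wt/ki, a tamoxifen-activated recombinase driven by the human ubiquitin C promoter, and the *Gt(ROSA)26Sor<tm1Ytchn>/J* wt/ki reporter of a green fluorescent histone. The *Tet iTKO* cells additionally carried the floxed alleles *Tet1/2/3fl/fl*, although their strain label lists the control genotype beside this one, and the groups were taken from the titles. Both groups received tamoxifen at 1 µM for 2.5 days and were then grown for 4 days, so that RNA was taken 6.5 days after the start of treatment. The lines were derived from blastocysts, grown on fibroblast feeder cells in 2i medium, and sorted for CD326, for green fluorescence and against the feeder antigen CD90.2. Since the labels do not say which line each library came from, the p-values measure the spread between these samples.

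In meiosis, homologous chromosomes pair, receive programmed DNA breaks and exchange DNA strands before they separate. Breaks are made on a protein axis that holds meiosis-specific cohesin, strand exchange proteins search for the homologue, and the synaptonemal complex zips the homologues together while crossovers form. Most of these genes are silent in somatic cells, and many are kept so by DNA methylation and by E2F6 and MGA-MAX, DNA-binding proteins of a variant Polycomb complex, although ground-state mESC transcribe some of them.

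The deposited values are normalized counts, which are read counts divided by a size factor for each library and rounded. The 6 libraries summed to between 3964824 and 4219665 normalized counts, which are totals after scaling and not the sequencing depth, and replicates of a group correlated with r of 0.972 to 0.979 across genes. Whole-gene counts do not separate floxed from deleted transcripts. *Tet1* stood at 696, 682 and 716 normalized counts in *Ctrl* and at 787, 895 and 753 in *Tet iTKO*, *Tet2* at 249, 170 and 230 against 233, 268 and 211, and *Tet3* at 28, 13 and 13 against 10, 3 and 3. By these counts *Tet3* fell (log2 fold change -1.67, SE 0.63, adjusted p = 0.0353 by limma) and *Tet1* rose (0.21, SE 0.08, adjusted p = 0.0257), calls that held in 2 and 4 of the 6 fits without a library and in neither case without the variance trend. With *Ctrl* replicate 1 left out *Tet3* stood at -1.32, and *Tet1* was not called with GC and length correction (0.14, adjusted p = 0.173). The loss of the floxed exons was therefore not checked by them.

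The promoters of the 4 meiotic genes with the largest falls and of the 2 with the largest rises are shown first, since these genes carry the results below and were picked after their values were seen. Each sequence is the 250 bases before a transcription start of RefSeq on GRCm38.p6, 5′ to 3′ on the gene's own strand. Every CpG dinucleotide, the site of DNA methylation, is in capitals. The windows lie at chr9:58741560-58741809 on the minus strand for *Rec114*, chr3:95559427-95559676 on the plus strand for *Hormad1*, chr11:4441083-4441332 on the minus strand for *Hormad2* and chr5:138280259-138280508 on the plus strand for *Stag3*. Those of *Rec8* and *Aurkc* lie at chr14:55617916-55618165 and chr7:6995135-6995384, both on the plus strand. In the GENCODE annotation the windows of *Rec114* and *Stag3* lie inside the gene, and those of *Hormad2*, *Rec8* and *Aurkc* reach into it. The start used for *Rec8* matched no transcript start of that annotation.
Rec114: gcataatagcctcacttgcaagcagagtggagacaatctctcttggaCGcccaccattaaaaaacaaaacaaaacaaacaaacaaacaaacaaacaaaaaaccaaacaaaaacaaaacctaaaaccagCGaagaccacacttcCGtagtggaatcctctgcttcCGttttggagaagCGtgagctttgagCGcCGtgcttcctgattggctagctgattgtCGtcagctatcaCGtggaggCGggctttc
Hormad1: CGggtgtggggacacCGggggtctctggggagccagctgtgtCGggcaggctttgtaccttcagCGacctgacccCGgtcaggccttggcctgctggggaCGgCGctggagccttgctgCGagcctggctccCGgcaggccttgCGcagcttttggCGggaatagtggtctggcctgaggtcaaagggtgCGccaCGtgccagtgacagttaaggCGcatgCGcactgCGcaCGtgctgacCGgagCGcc
Hormad2: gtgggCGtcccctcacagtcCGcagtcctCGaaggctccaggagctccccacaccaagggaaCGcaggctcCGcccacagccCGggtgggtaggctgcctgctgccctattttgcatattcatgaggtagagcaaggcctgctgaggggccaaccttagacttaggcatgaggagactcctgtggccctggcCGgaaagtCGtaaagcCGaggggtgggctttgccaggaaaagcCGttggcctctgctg
Stag3: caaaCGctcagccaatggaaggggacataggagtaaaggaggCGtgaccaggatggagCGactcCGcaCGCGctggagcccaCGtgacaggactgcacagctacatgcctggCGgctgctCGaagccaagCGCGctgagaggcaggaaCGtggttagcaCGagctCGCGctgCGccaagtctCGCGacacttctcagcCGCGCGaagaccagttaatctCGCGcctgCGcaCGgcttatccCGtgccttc
Rec8: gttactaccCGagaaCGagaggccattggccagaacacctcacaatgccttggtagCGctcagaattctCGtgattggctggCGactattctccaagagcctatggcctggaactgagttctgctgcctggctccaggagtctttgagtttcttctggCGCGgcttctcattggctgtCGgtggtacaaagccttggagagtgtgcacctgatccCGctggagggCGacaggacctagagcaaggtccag
Aurkc: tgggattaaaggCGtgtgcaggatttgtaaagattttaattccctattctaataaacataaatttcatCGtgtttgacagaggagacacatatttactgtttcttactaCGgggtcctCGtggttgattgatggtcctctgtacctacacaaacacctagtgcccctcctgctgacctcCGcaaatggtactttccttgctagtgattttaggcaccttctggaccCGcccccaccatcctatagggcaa

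*Stag3* had 26 CpG in these 250 bases, *Hormad1* 19, *Rec114*, *Hormad2* and *Rec8* 10 each, and *Aurkc* 6. The genes that fell and the genes that rose thus overlapped in the CpG content of their promoters. Over whole windows, which also hold the first 50 bases of the transcript, RefSeq gave 36 windows for 31 of the meiotic genes. These had a median of 18 CpG, beside 7 in all 32807 windows of the mouse table and 21 in the 10665 windows of the genes tested below. The ratio of observed to expected CpG had a median of 0.71 in the meiotic windows, 0.38 in all windows and 0.77 in those of the genes tested.

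The E2F motif TCCCGC, searched on both strands, occurred in 23 of the 36 meiotic windows (63.9%), beside 19.97% of all windows and 36.7% of the windows of genes tested. The E-box CACGTG, the letters bound by MAX heterodimers, occurred in 9 of 36 (25%), beside 7.15% and 10.5%. The T-box core TCACAC, also on both strands, occurred in 4 of 36 (11.1%), beside 14.5% and 10.7%. The E-box and the T-box core can share letters at their ends. The E2F motif and the E-box each hold a CpG, so their shares can vary with CpG content, for which no adjustment was made. The meiotic windows had a median of 18 CpG, beside 7 in all windows and 21 in those of genes tested. Counted by gene, the E2F motif was found for 5 of the 6 genes that fell in *Tet iTKO*, 2 of the 3 that rose and 5 of the 9 without a call that had a window. The E-box, which in the sequences above reads caCGtg in *Rec114*, *Hormad1* and *Stag3*, was found for 3 of 6, 1 of 3 and 2 of 9. These matches are a description of letters and not of binding.

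**Figure D1:**
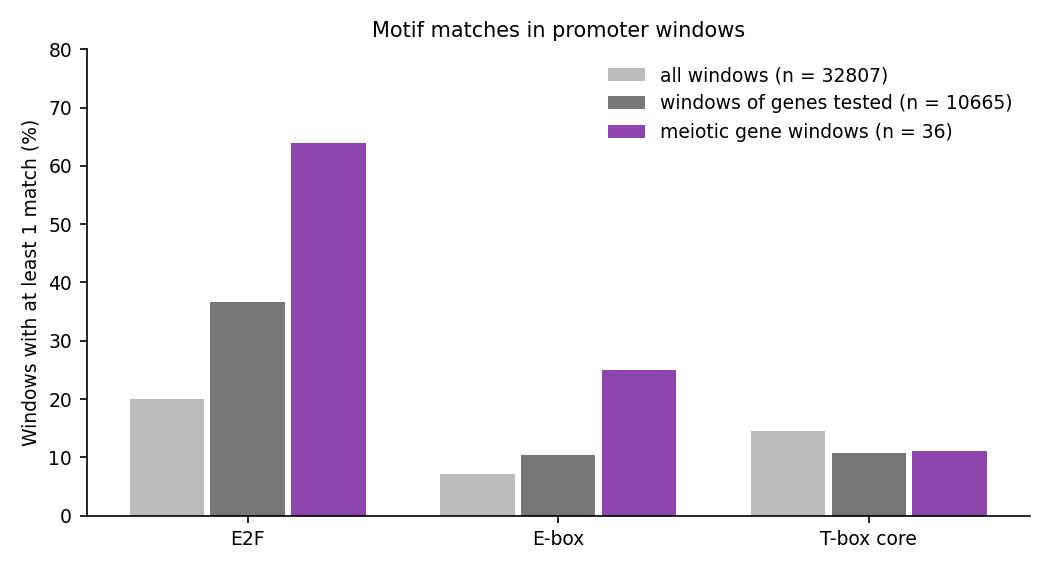
Share of promoter windows (%, vertical axis) with at least 1 match to each of the motifs on either strand, for all windows, the windows of all genes tested and the meiotic gene windows. The E2F bar of the meiotic genes stands at 63.9% and their E-box bar at 25%, both above the bars of the genes tested at 36.7% and 10.5%, while the T-box bars lie between 10.7% and 14.5%.

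Genes were compared between groups by limma on log2(normalized count + 1), for the 10524 genes with a mean of at least 10 normalized counts, with Benjamini-Hochberg adjustment over all of them and a threshold of 0.05. Of the 38 matched meiotic genes, 20 passed this filter. In *Tet iTKO*, 6 of them were lower (*Rec114*, *Hormad1*, *Hormad2*, *Stag3*, *Mnd1* and *Hsf2bp*), 3 were higher (*Rec8*, *Syce2* and *Aurkc*) and 11 had no call. Of all genes tested, 18.4% were called lower and 16.4% higher, beside 6 and 3 of the 20 meiotic genes, and no test of the difference was made. The median log2 fold change was -0.07 over the 20 meiotic genes and 0.01 over all genes tested. With each library corrected for transcript GC content and length, 5 of the 20 were lower and 4 higher, beside 19.15% lower (2015) and 9.77% higher (1028) of all genes, in place of 1934 and 1731. The medians then stood in the other order, at 0.01 over the 20 and -0.06 over all genes.

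The *Tet iTKO* libraries all lay below the *Ctrl* libraries for 8 of the 20 genes and all above them for 5, while for 7 the groups overlapped. Over all genes tested, 22.9% were separated in the lower direction and 21.2% in the higher direction. The smallest log2 fold change was that of *Hormad2* (-1.98) and the largest that of *Rec8* (1.14). On a log2 scale, 2 of the genes that fell and 2 of the genes that rose changed by at least 1, beside 1.3% and 4.95% of all genes tested. Of these, *Rec8* was under 1 with GC and length correction (0.93). The 20 genes were shorter than the genes tested in all, with a median transcript length of 2076.5 against 3352 bases, and had a lower median GC content of 45.1% against 50.0%.

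**Figure D2:**
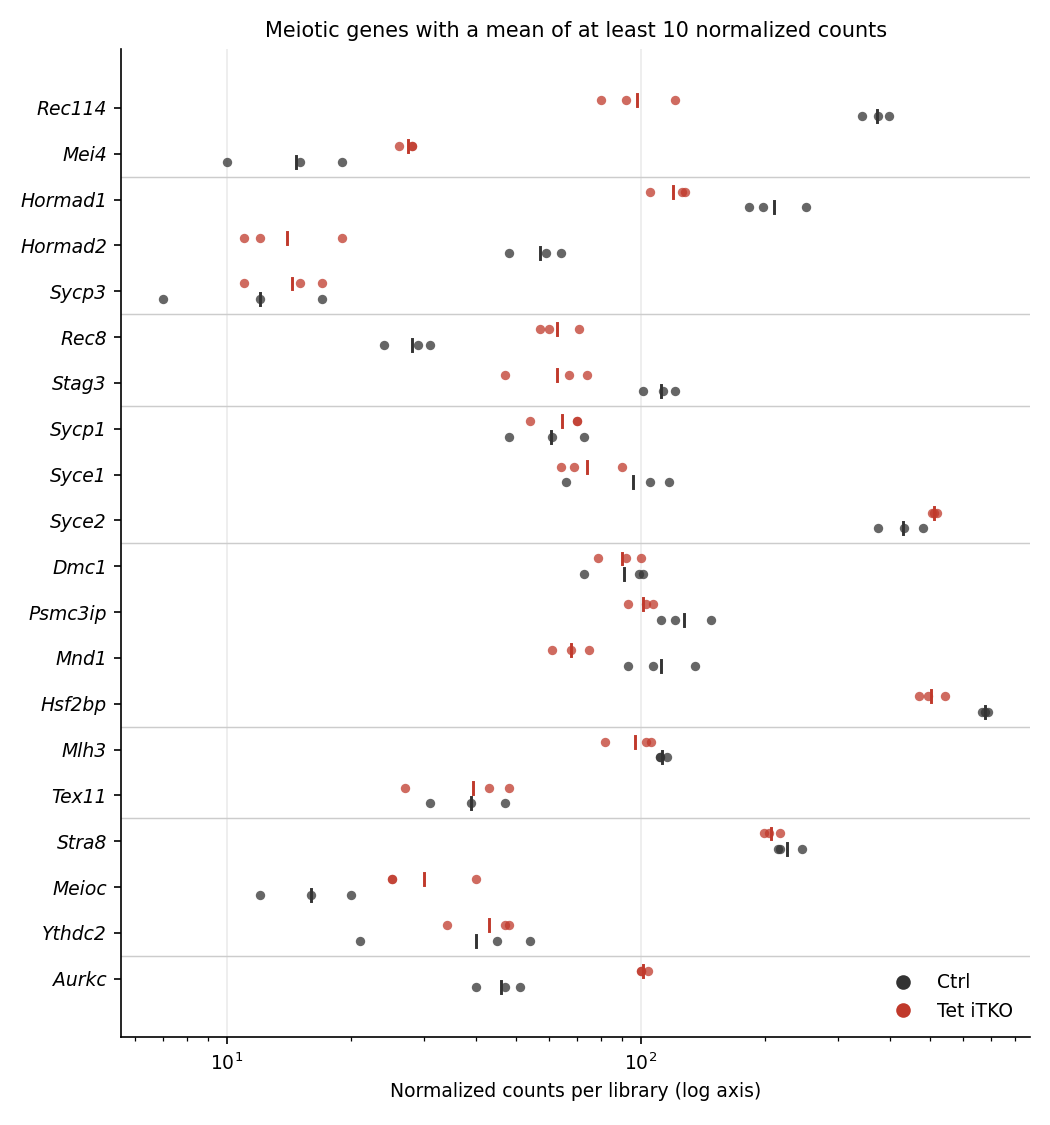
Normalized counts in each library (horizontal log axis) for the 20 meiotic genes tested, grouped by role, with *Ctrl* in black, *Tet iTKO* in red, 1 point per library and short vertical lines at the means of 3. The groups are farthest apart for *Rec114* and *Hormad2*, whose *Tet iTKO* points lie to the left, and for *Rec8* and *Aurkc*, whose *Tet iTKO* points lie to the right.

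**Figure D3:**
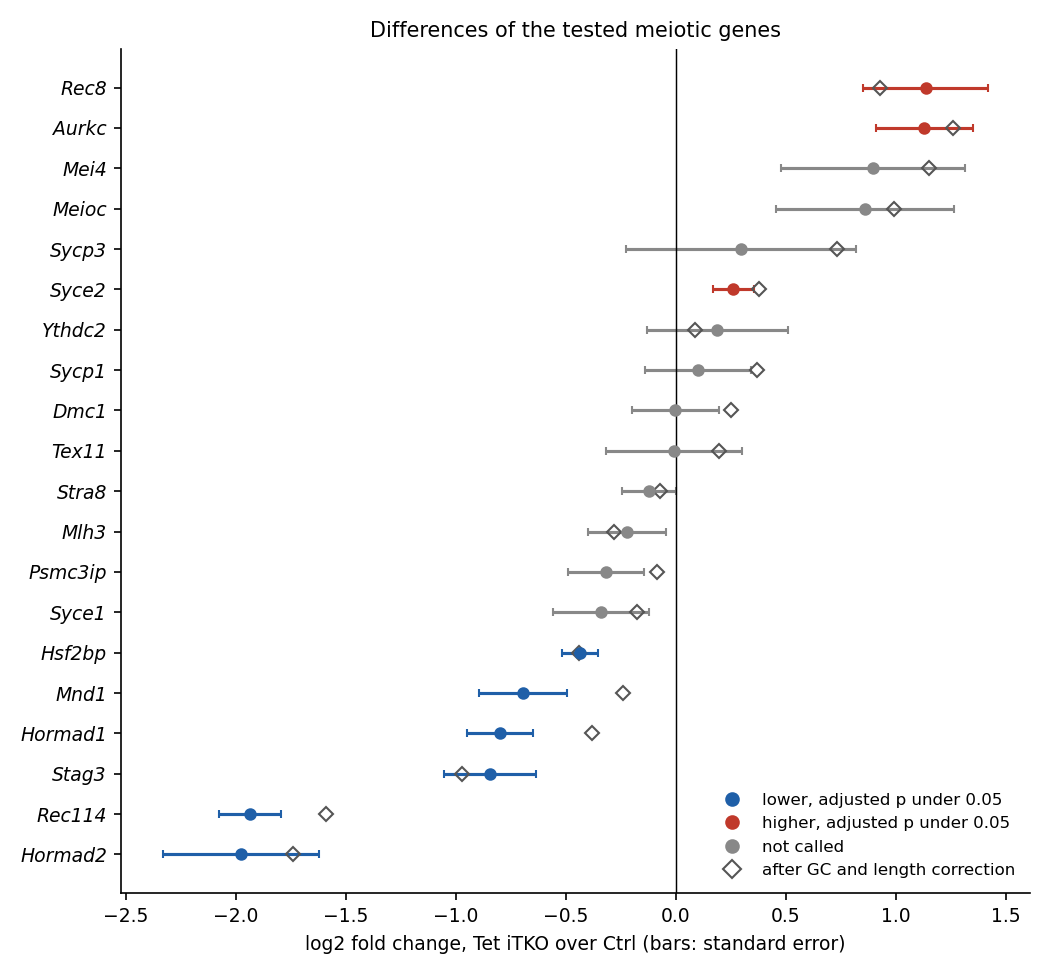
Log2 fold change of *Tet iTKO* over *Ctrl* (horizontal axis) for the same 20 genes, ordered by size, with bars of 1 standard error and open diamonds for the value after GC and length correction. *Hormad2* at -1.98 and *Rec114* at -1.94 stand apart from the other genes, and the diamonds of *Mnd1* (-0.24) and *Hormad1* (-0.38) lie nearer to 0 than their points.

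Among the genes of break formation, *Rec114*, an accessory factor without which the SPO11 enzyme makes no breaks, had the smallest adjusted p. It stood at 375, 343 and 398 normalized counts in the *Ctrl* libraries and at 92, 80 and 121 in *Tet iTKO*. Every *Tet iTKO* library was far below every *Ctrl* library. The mean went from 372 ± 27.6 to 97.7 ± 21.1 (SD, n = 3 each), or 26.3% of *Ctrl*, with a log2 fold change of -1.94 (SE 0.14, adjusted p = 3.03e-13 by limma). Without each library in turn the log2 fold change ran from -2.10 to -1.81. After GC and length correction *Rec114* stood at -1.59 (adjusted p = 4.37e-11 by limma). Without the variance trend its adjusted p was 0.00673. In the GRCm38 annotation its exons overlap those of *Nptn* on the other strand, and *Nptn* moved the other way, from 152, 135 and 129 to 198, 218 and 219.

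*Mei4*, the partner of REC114 in the same complex, stood at 19, 15 and 10 normalized counts in *Ctrl* and at 28, 26 and 28 in *Tet iTKO*. All *Tet iTKO* libraries were above all *Ctrl* libraries, yet the difference did not pass the threshold (log2 fold change 0.90, SE 0.42, adjusted p = 0.0940). After GC and length correction it did (1.15, adjusted p = 0.0334). The other genes of break formation were barely detected. *Spo11*, the enzyme itself, was at or under 3 normalized counts in every library, the floor used here for detection. *Mei1*, another accessory factor, stood at 0, 0 and 1 against 5, 2 and 2, and *Prdm9*, the histone methyltransferase that places breaks in mice, at 7, 2 and 3 against 1, 1 and 1. Neither was tested.

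The RNAs of *Hormad1* and *Hormad2*, whose products recruit break factors to the chromosome axis and monitor synapsis, were both lower in *Tet iTKO*. *Hormad1* stood at 251, 197 and 183 normalized counts in *Ctrl* and at 128, 126 and 105 in *Tet iTKO*, with no overlap. Its mean fell from 210 ± 35.9 to 120 ± 12.7 (SD, n = 3 each), a log2 fold change of -0.80 (SE 0.15, adjusted p = 6.15e-05). *Hormad2* stood at 64, 59 and 48 in *Ctrl* and at 11, 12 and 19 in *Tet iTKO*, so that its highest *Tet iTKO* library was below its lowest *Ctrl* library. The log2 fold change was -1.98 (SE 0.35, adjusted p = 3.09e-05). After GC and length correction the value of *Hormad1* moved to -0.38 (adjusted p = 0.0469) and that of *Hormad2* to -1.74 (adjusted p = 0.000210).

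*Sycp3*, which with SYCP2 builds the axis core, stood near the lower limit of the test, at 12, 17 and 7 normalized counts in *Ctrl* against 17, 11 and 15 in *Tet iTKO*. The groups overlapped and the 95% interval of the log2 fold change ran from -0.77 to 1.35. The exons of *Sycp3* overlap those of *Chpt1* on the other strand, which stood at 119, 106 and 80 against 78, 96 and 78. *Sycp2* was at 0 in 5 libraries and at 4 in *Tet iTKO* replicate 3.

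The 2 meiosis-specific cohesin subunits that could be tested moved in opposite directions. *Rec8*, the kleisin that replaces RAD21 in meiotic cohesin, stood at 31, 29 and 24 normalized counts in *Ctrl* and at 57, 71 and 60 in *Tet iTKO*. All *Tet iTKO* libraries were higher, and the gene rose by a log2 fold change of 1.14 (SE 0.29, adjusted p = 0.00181). The rise of *Rec8* was 0.93 with GC and length correction (adjusted p = 0.0120 by limma) and 0.96 under quantile normalization (adjusted p = 0.00716). *Stag3*, the subunit that takes the place of STAG1 and STAG2, stood at 121, 101 and 113 in *Ctrl* and at 47, 74 and 67 in *Tet iTKO*. All its *Tet iTKO* libraries were lower, and it fell by 0.84 on the log2 scale (SE 0.21, adjusted p = 0.00153). *Smc1b*, the meiotic counterpart of SMC1A, stood at 6, 17 and 15 against 4, 2 and 6, too low to be tested, and *Rad21l*, a kleisin of early prophase, was at 0 in all 6 libraries.

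Per kb of exon, *Rec8* had 9.54 ± 1.23 normalized counts in *Ctrl* against 21.4 ± 2.51 in *Tet iTKO* (SD, n = 3 each), while its mitotic counterpart *Rad21* had 150 ± 17.5 and 146 ± 15.0. *Stag3* had 19.5 ± 1.76 per kb in *Ctrl*, beside 19.8 ± 1.22 for *Stag1* and 10.8 ± 1.83 for *Stag2*, values that do not differ beyond their spread between *Stag3* and *Stag1*. In *Tet iTKO*, *Stag3* had 10.9 ± 2.44 per kb, *Stag1* 19.7 ± 2.76 and *Stag2* 10.7 ± 1.28. Of the 10 genes of mitotic cohesin and its regulators, all tested, 1 was called lower, the release factor *Wapl* (log2 fold change -0.20, SE 0.08, adjusted p = 0.0412), and 0 higher by limma. The groups overlapped for *Wapl*, and its call held in 2 of the 6 fits without a library. At an unadjusted p under 0.05, 2 were lower and 0 higher. The shares of all genes tested that were called lower and higher were 18.4% and 16.4%.

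**Figure D4:**
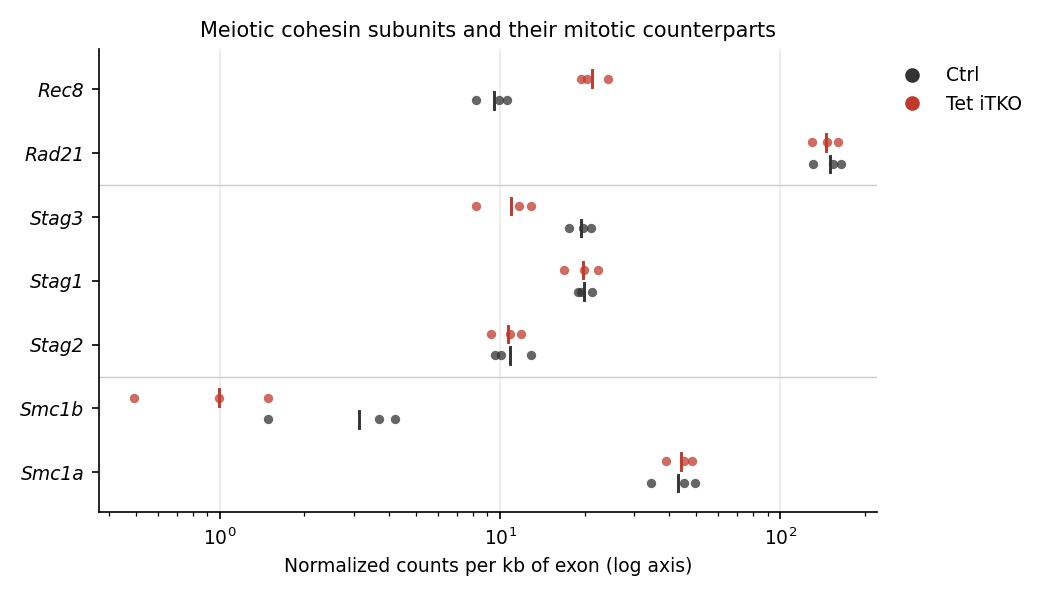
Normalized counts per kb of exon in each library (horizontal log axis) for meiotic cohesin subunits and, under each, the subunits of mitotic cohesin they stand in for, with *Ctrl* in black, *Tet iTKO* in red and vertical lines at the means of 3. *Rad21* lies near 150 in both groups and *Rec8* at 9.54 and 21.4, while *Stag3* moves from the level of *Stag1* to that of *Stag2*.

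Of the synaptonemal complex, the transverse filament gene *Sycp1* and the central element genes *Syce1* and *Syce2* could be tested. *Sycp1* stood at 48, 73 and 61 normalized counts in *Ctrl* against 54, 70 and 70 in *Tet iTKO*. The groups overlapped, and the 95% interval of its log2 fold change ran from -0.38 to 0.59. *Syce1* stood at 117, 66 and 105 against 90, 69 and 64, with overlap and a log2 fold change of -0.34 (SE 0.22, adjusted p = 0.240). Without *Ctrl* replicate 2, its lowest *Ctrl* library, it was called lower (-0.59, adjusted p = 0.0432).

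*Syce2* was far more abundant, at 433, 482 and 374 normalized counts in *Ctrl* against 520, 505 and 512 in *Tet iTKO*. All *Tet iTKO* libraries lay above all *Ctrl* libraries, and it rose by a log2 fold change of 0.26 (SE 0.09, adjusted p = 0.0253). That call held in 2 of the 6 fits without a library, and without *Ctrl* replicate 3 the log2 fold change was 0.16 (adjusted p = 0.200). *Syce3* and *Tex12*, the remaining central element genes, did not exceed 9 in any library.

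The strand exchange genes divided into ones that fell and ones without a call. *Dmc1*, the meiotic recombinase that coats single-stranded DNA, stood at 101, 99 and 73 normalized counts in *Ctrl* and at 100, 79 and 92 in *Tet iTKO*. The groups overlapped, and the 95% interval of the log2 fold change ran from -0.40 to 0.40. *Mnd1* and *Psmc3ip* encode the partners of the dimer that stimulates DMC1. *Mnd1* stood at 107, 93 and 135 against 68, 75 and 61, without overlap, and fell by 0.70 on the log2 scale (SE 0.20, adjusted p = 0.00630). This call was lost after GC and length correction (-0.24, adjusted p = 0.406) and without *Ctrl* replicate 3 (-0.55, adjusted p = 0.0599).

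*Psmc3ip* stood at 121, 112 and 148 normalized counts in *Ctrl* and at 93, 103 and 107 in *Tet iTKO*. Every *Tet iTKO* library was below every *Ctrl* library, but the log2 fold change of -0.32 (SE 0.17) did not pass the threshold (adjusted p = 0.152). *Hsf2bp*, whose product brings BRCA2 to meiotic breaks, had the highest counts of the 20 genes in *Ctrl*, not scaled by length, at 692, 668 and 680. In *Tet iTKO* it stood at 544, 469 and 495. The groups did not overlap, and it fell by 0.44 on the log2 scale (SE 0.08, adjusted p = 4.96e-05). Its exons overlap those of *Rrp1b* on the other strand, which stood at 1035, 992 and 1095 against 993, 1091 and 970. *Meiob*, a single-strand DNA-binding partner of SPATA22, was at or under the floor, and *Mcmdc2* stood between 4 and 9 in all 6 libraries.

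No crossover gene was called. *Mlh3*, a MutL subunit that resolves crossovers, stood at 111, 111 and 116 normalized counts in *Ctrl* against 103, 82 and 106 in *Tet iTKO*. The *Tet iTKO* libraries were lower without overlap, and the 95% interval of the log2 fold change ran from -0.58 to 0.14 (adjusted p = 0.357). *Tex11*, an X-linked gene needed for crossovers in males, stood at 47, 31 and 39 against 43, 27 and 48, with overlap and an interval from -0.64 to 0.62. The MutS genes *Msh4* and *Msh5* and the helicase gene *Hfm1* were too low to be tested, with 2 to 12 normalized counts in *Ctrl* against 1 to 9 in *Tet iTKO*. *Rnf212*, a SUMO ligase at crossover sites, was at 0 in all libraries.

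The genes of meiotic entry were transcribed in both groups. *Stra8*, the retinoic acid target that starts the meiotic programme, stood at 245, 214 and 217 normalized counts in *Ctrl* and at 217, 204 and 199 in *Tet iTKO*. The groups touched at 217, and the 95% interval of the log2 fold change ran from -0.37 to 0.13 (adjusted p = 0.472). *Meioc* and *Ythdc2* encode partners in an RNA-binding complex that keeps cells in meiosis. *Meioc* stood at 16, 12 and 20 against 25, 40 and 25, all higher in *Tet iTKO*, with a log2 fold change of 0.86 (SE 0.41) that did not pass the threshold (adjusted p = 0.0977). *Ythdc2* stood at 54, 21 and 45 against 34, 48 and 47, with overlap.

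*Aurkc*, a kinase of meiotic divisions related to AURKB of mitotic cells, rose in *Tet iTKO*. It stood at 40, 51 and 47 normalized counts in *Ctrl* and at 100, 104 and 100 in *Tet iTKO*. The *Tet iTKO* libraries were all higher, by a log2 fold change of 1.13 (SE 0.22, adjusted p = 0.000102), or 1.26 after GC and length correction. *Meikin*, a kinetochore regulator of the first division, was at or under the floor in all libraries. Of the genes that attach telomeres to the nuclear envelope, *Terb1* was at or under the floor, *Terb2* stood at 7, 5 and 4 against 1, 1 and 7, and *Majin* at 7, 6 and 5 against 8, 2 and 8.

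Levels can be compared between genes only per kb of exon. On this scale the 20 genes in *Ctrl* ran from 3.47 ± 0.87 normalized counts per kb for *Meioc* to 291 ± 21.6 for *Rec114* (SD, n = 3 each). The median over all genes tested was 29.4 per kb, and 10 of the 20 meiotic genes lay above it. *Rec114* was followed in *Ctrl* by *Syce2* at 218 ± 27.5, *Hsf2bp* at 189 ± 3.34, *Mnd1* at 128 ± 24.4, *Stra8* at 125 ± 9.48 and *Hormad1* at 122 ± 20.8. Of these neighbours, *Syce2* and *Hsf2bp* did not differ beyond their spread, nor did *Mnd1*, *Stra8* and *Hormad1*. In *Tet iTKO*, *Syce2* had 260 ± 3.81 per kb and *Hsf2bp* 140 ± 10.6, and *Rec114* had 76.5 ± 16.5, within the spread of *Mnd1* at 77.7 ± 8.0 and *Hormad1* at 69.2 ± 7.37.

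Over the 38 matched genes, 25 exceeded 3 normalized counts in every *Ctrl* library and 21 in every *Tet iTKO* library, and 21 did so in all 6. The 4 genes that did so in *Ctrl* but not in *Tet iTKO* were *Smc1b*, *Hfm1*, *Majin* and *Terb2*, all too low to be tested. Of all 22380 identifiers, 47.5% exceeded the floor in every *Ctrl* library and 50.1% in every *Tet iTKO* library. A total of 12 meiotic genes exceeded the floor somewhere but had a mean under 10, 4 never exceeded it and 2 were at 0 throughout. Genes under the floor were not detectable at this depth, which does not show that they were silent.

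**Figure D5:**
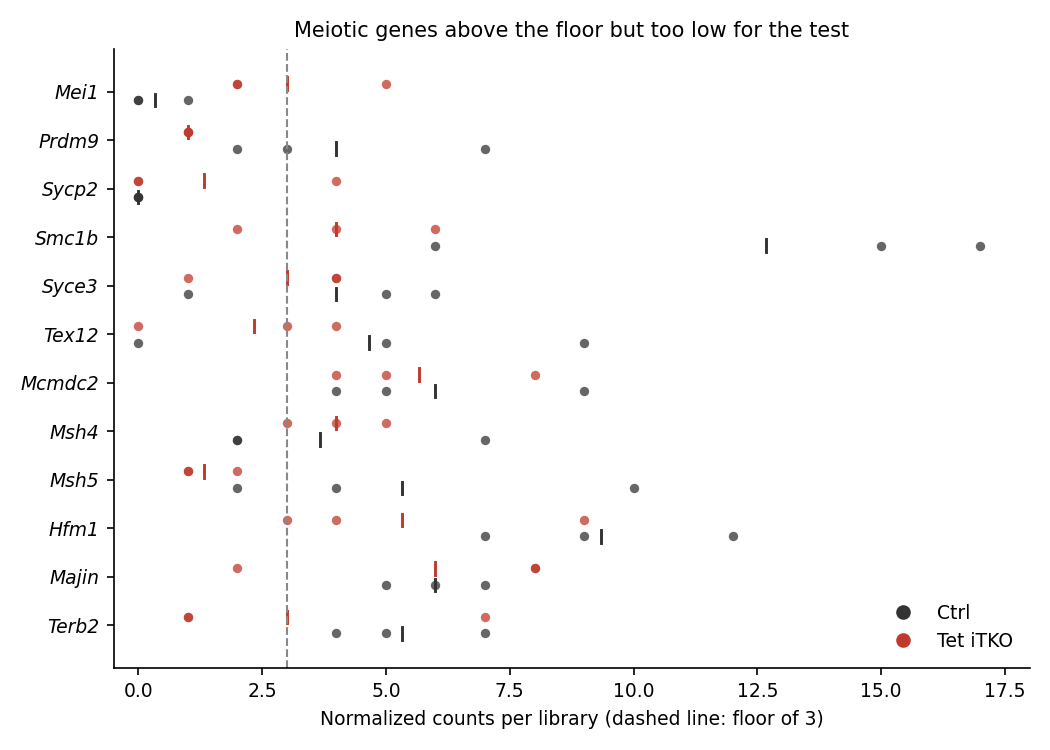
Normalized counts in each library (horizontal axis) for the 12 meiotic genes that exceeded 3 normalized counts somewhere but were too low for the test, with *Ctrl* in black, *Tet iTKO* in red, vertical lines at the means of 3 and a dashed line at 3. No value exceeds 17, and *Smc1b* has the highest values, at 15 and 17 in *Ctrl*.

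Other genes of meiosis and the germline were compared in the same way, beside 18.4% called lower and 16.4% called higher of all genes tested. Of 28 further genes with roles in meiosis or more widely in the germline, 25 were matched and 13 tested, and 3 fell. *Ccnb1ip1*, a crossover regulator, fell by 0.89 on the log2 scale (SE 0.33, adjusted p = 0.0340). *Fkbp6*, a germline chaperone, fell by 0.49 (SE 0.11, adjusted p = 0.000627). *Tex19.1*, a germline guardian against retrotransposons with a mean of 1549 normalized counts in *Ctrl*, fell by 0.24 (SE 0.06, adjusted p = 0.00310). The call of *Ccnb1ip1* held in 1 of the 6 fits without a library and was lost with GC and length correction (adjusted p = 0.222 by limma). That of *Tex19.1* was lost under quantile normalization (adjusted p = 0.0929) and without the variance trend (adjusted p = 0.129). By limma 0 rose, and 2 were higher at an unadjusted p under 0.05. After GC and length correction 1 was called higher and 2 lower, and the median log2 fold change turned from -0.01 to 0.15. Of 35 partners that meiotic and mitotic cells share, all tested, 9 fell and 3 rose, with a median of -0.09. Without the variance trend 5 were called lower and 2 higher, beside 11.6% and 10.2% of all genes. The largest falls were those of *Rpa3*, a subunit of the single-strand DNA-binding protein RPA (-1.26, SE 0.14, adjusted p = 9.05e-09), and *Skp1a*, a subunit of SCF ubiquitin ligases (-0.46, SE 0.06, adjusted p = 2.18e-08). The largest rises were those of the nuclease scaffold *Slx4* (0.84, SE 0.19, adjusted p = 0.000469) and the helicase *Blm* (0.35, SE 0.11, adjusted p = 0.0139), whose call held in 4 of the 6 fits without a library.

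The cell types were checked by marker genes, whose calls stand beside 18.4% lower and 16.4% higher of all genes tested. The 8 markers of pluripotent cells, among them *Pou5f1*, summed to between 21607 and 22249 normalized counts in *Ctrl* and between 17779 and 18743 in *Tet iTKO*. Of these 8, 4 fell (*Pou5f1*, *Nanog*, *Zfp42* and *Dppa5a*) and 2 rose (*Esrrb* and *Klf4*). *Dppa5a*, which held most of the sum's change, turned from -0.39 to 0.14 on the log2 scale with GC and length correction. Under the same correction *Esrrb* stood at -0.03 (adjusted p = 0.731 by limma), and *Nanog*, *Zfp42* and *Klf4* were not called (adjusted p of 0.0566 to 0.342). *Pou5f1* stood at -0.08 under quantile normalization (adjusted p = 0.202). Without the variance trend 1 of the 8 was called lower and 0 higher. The 5 spermatid markers were at 0 in all 6 libraries. Of 9 germ cell markers, all tested, 3 fell (*Dazl*, *Prdm1* and *Tfap2c*) and 1 rose (*Dppa3*, called in 3 of the 6 fits without a library), with sums of 1572 to 1695 and 1374 to 1405. The call of *Tfap2c* was lost under quantile normalization (adjusted p = 0.0675 by limma) and without the variance trend (adjusted p = 0.0647). *Dazl*, an RNA-binding protein of germ cells that acts before meiosis, fell by 1.54 on the log2 scale (SE 0.19, adjusted p = 4.26e-08).

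Of 9 fibroblast markers 4 were tested, and the collagen genes *Col1a1*, *Col1a2* and *Col3a1* rose. These collagens carried the sum of the list, which was 280 to 294 normalized counts in *Ctrl* against 477 to 556 in *Tet iTKO*. With GC and length correction *Col1a1* was no longer called (0.24, adjusted p = 0.157). *Thy1*, which encodes the feeder antigen CD90 sorted against, stood at 30, 46 and 41 against 47, 35 and 23, and *Postn* did not exceed 3. The remaining markers were too low to be tested. *Dcn* stood at 2, 3 and 15 against 1, 2 and 6, and *Lum* at 2, 8 and 1 against 2, 2 and 1. *Pdgfrb* stood at 2, 0 and 9 against 4, 3 and 2, and *Pdgfra* at 2, 0 and 0 against 9, 0 and 2. Of the 6 matched markers of two-cell-like cells, a rare state of mESC cultures, 4 were tested and all 4 rose. The sums of the list were 9 to 24 in *Ctrl* and 145 to 172 in *Tet iTKO*. The *Ctrl* means of these 4 ran from 1.3 (*Usp17la*) to 9.0 (*Zscan4d*), below the filter for testing. They could thus be tested only because they were higher in *Tet iTKO*, and a fall could not have been called. For each of the 4, all *Tet iTKO* libraries lay above all *Ctrl* libraries. The part of either list in the differences of the meiotic genes was not tested. In bulk libraries, fewer cells that transcribe a gene and less RNA of it per cell cannot be told apart.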

How the data were processed

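RNA of 3 *Ctrl* and 3 *Tet iTKO* samples was analysed, grouped by their titles. The authors mapped the Smart-Seq2 reads with STAR, discarding those with several alignments. Reads in genes were then tallied by HTSeq 0.7.1 in stranded mode and divided by DESeq2 1.26.0 size factors (R 3.5.2, mm9, per the submitters' processing notes). What was deposited is the quotient as an integer, a score rather than a raw count, so no count model was used and the reads behind each value cannot be recovered, though the study's methods state a common sequencing depth. Because Smart-Seq2 does not keep strand, reads of an overlapping gene on the other strand can be counted for a meiotic gene and cannot be told from its own. That touches the exons of 6 meiotic genes (*Rec114*, *Sycp3*, *Psmc3ip*, *Hsf2bp*, *Mcmdc2* and *Msh4*).

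GENCODE M21 (GRCm38) gave symbols for 20775 of the 22380 identifiers, with lengths and GC content. Genes with a mean of at least 10 were tested with limma 3.58.1 (lmFit, eBayes with trend, two-sided) in R 4.3.3 on log2(value + 1), which understates the change of low genes, with Benjamini-Hochberg adjustment. In data simulated for *Tet iTKO* against *Ctrl* over 22380 genes, it called 200 of 200 genes changed by a log2 fold of 2 and 10 unchanged genes. The changed genes were drawn from those with means above the filter, and the spread between libraries was assumed. No meiotic gene tested changed by as much, so the power for smaller changes or lower genes was not measured. The correction for GC content and length subtracted a loess fit (span 0.3) from each library. Alternatives changed the pseudocount, filter, scaling, variance trend, replicate block and libraries used. All meiotic genes are accounted for, and genes of the other lists are named where they had the largest called changes, overlap a meiotic gene or mark a cell type. *Tex19.1*, *Dnmt1*, *Dnmt3b* and the mitotic counterparts of cohesin subunits were added after their values were seen. The meiotic genes and all lists were chosen with earlier results of these data known. Tables and figures were made with Python 3.11.15, pandas 2.3.3, NumPy 2.4.6 and matplotlib 3.10.9.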

Additional observations from a re-analysis of the deposited data

How the results depend on the processing

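The counts of 6 meiotic genes lower and 3 higher stayed within 1.5 times under the alternatives of pseudocount, filter, scaling, variance trend, correction and libraries, except that 2 were lower when a log2 fold change of at least 1 was also asked. Over all genes, 1217 were lower and 1075 higher without the variance trend, and 137 and 521 with a log2 fold change of at least 1. With GC and length correction 1028 were higher (1037 with the replicate block), or 33.8% of the calls in place of 47.2%. Same-numbered libraries of *Ctrl* and *Tet iTKO* did not deviate together from their group means, with correlations of 0.00071, -0.0054 and -0.0031. Whether they shared a day or an experiment cannot be told from these values, since deviations of single libraries are noisy. The replicate block gave 6 meiotic genes lower and 3 higher, and 1980 and 1762 of all genes. The cause of these shifts was not tested.

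Among the meiotic genes, direction turned only for those without a call. Under quantile normalization the log2 fold change was -0.11 for *Sycp3*, -0.0034 for *Sycp1* and -0.0032 for *Ythdc2*. With GC and length correction, with or without the block, it was 0.25 for *Dmc1* and 0.20 for *Tex11*. Without 1 library each, the range was -0.017 to 0.57 for *Sycp3*, -0.055 to 0.24 for *Sycp1*, -0.15 to 0.090 for *Dmc1*, -0.17 to 0.23 for *Tex11* and -0.21 to 0.45 for *Ythdc2*. The call of *Syce2* was also lost with all genes above 0 tested (adjusted p = 0.0745) and without the variance trend (adjusted p = 0.151), and *Mei4* was called without the trend (adjusted p = 0.0393). Values were deposited to the nearest 1 count, which limits the precision of genes near the filter of 10.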

Other observations

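Among 18 genes that repress germline promoters or set DNA methylation, all tested, 4 rose and 2 fell in *Tet iTKO*. The shares called higher and lower over all genes tested were 16.4% and 18.4%. The rises were those of *Setdb1*, a histone H3K9 methyltransferase (log2 fold change 0.48, SE 0.09, adjusted p = 9.73e-05 by limma), and of the DNA methyltransferase genes *Dnmt1*, *Dnmt3a* and *Dnmt3b* (0.21 to 0.25), which with GC and length correction turned to -0.18 for *Dnmt1* (adjusted p = 0.0317), -0.14 for *Dnmt3a* (adjusted p = 0.138) and -0.00029 for *Dnmt3b* (adjusted p = 0.997). *Dnmt3l*, the cofactor of de novo methylation in germ cells, fell from 849 ± 65.3 to 603 ± 36.6 normalized counts (SD, n = 3 each), a log2 fold change of -0.49 (SE 0.08, adjusted p = 3.85e-06), and *Uhrf1*, which brings DNMT1 to replicated DNA, fell by 0.15 (adjusted p = 0.0247), a call that held in 2 of the 6 fits without a library. The median over the 18 genes was 0.04 beside 0.01 over all genes tested. With GC and length correction 1 gene of the list was called higher and 6 lower, beside 9.77% and 19.15% of all genes. The median of the list then turned to -0.06, and that over all genes tested to -0.06.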
